A study of Mus musculus with 5 samples.

Results

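The genes described here encode the transport machinery and the gate of the cilium: 14 subunits of intraflagellar transport (IFT), 8 Bardet-Biedl syndrome (BBS) proteins and 10 proteins of the transition zone, the structure that photoreceptors elaborate into the connecting cilium. They were chosen by name, as every row whose symbol begins with Ift or Bbs followed by a number, together with 10 listed transition zone genes. This gave 32 genes of the 24594 in the table, and all 32 were abundant enough to be tested.

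IFT trains carry tubulin and membrane proteins along the ciliary axoneme. IFT-B trains, drawn by kinesin-II, travel to the tip, and IFT-A works with cytoplasmic dynein on the way back and in the entry of membrane proteins. The BBSome is a coat that rides on the trains and removes membrane proteins from the cilium. The transition zone lies at the ciliary base, tethers the membrane to the microtubules and controls what passes. In rods and cones the outer segment is a modified cilium, so all its proteins cross the connecting cilium, while dividing progenitors carry only a short primary cilium that is taken down before mitosis.

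RNA was sequenced from mouse retinal cells in 3 libraries labelled Zfp292-OE and 2 control libraries. Pups received a plasmid by electroporation in vivo at postnatal day 0, CAG-Zfp292 in the first group and CAG-GFP in the control. The CAG promoter is strong and not restricted to any retinal cell type. After 4 days the retinas were dissociated, and GFP-positive cells of both groups were sorted. The labels name them RPCs, that is, retinal progenitor cells. Libraries were made from total RNA with a SMARTER mRNA-Seq kit. Strain and pooling of animals were not stated. Since no label assigns the libraries to different animals, p-values describe library-to-library spread, which may be technical.

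Depth ranged from 103096224 to 137683716 reads assigned to genes per library. All values are normalised read counts, that is, reads divided by 1 factor per library. Zfp292, the gene carried by the plasmid, had normalised read counts of 14631, 13197 and 15534 in libraries 1, 2 and 3 labelled Zfp292-OE, against 13288 and 14756 in control libraries 1 and 2. It was not detectably higher (log2 fold change 0.04, 95% interval −0.28 to 0.37, limma adjusted p = 0.867), so all directions follow the labels alone. Rod genes were read in the cells of both groups, and all 15 on the rod list fell, with summed values of 226088 to 277134 in libraries labelled Zfp292-OE and 884678 and 1026820 in control libraries. All 15 genes of the G2/M list rose, with sums of 218047 to 442050 in libraries labelled Zfp292-OE and 48735 and 56953 in control libraries. Both groups gave reads of dividing cells and of rods. Bipolar genes included 7 of 9 that fell, cone genes 4 of 9 and Müller glia genes 5 of 10, with 1 Müller glia gene higher. Endothelial and pericyte genes included 1 higher and 2 lower of 9. Of 10 microglia and 6 pigment epithelium genes tested, limma, edgeR and DESeq2 each called 0, with 1 and 0 at an unadjusted p below 0.05. Microglial sums ran from 457 to 6918 in libraries labelled Zfp292-OE and were 4403 and 15720 in control libraries.

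Among the 32 genes, calls in the IFT and the transition zone genes were of opposite direction. Transition zone genes included 5 that fell and 0 that rose, among them Rpgrip1 at 0.310 of its control level. IFT genes included 2 that rose, Ift74 and Ift57, and 0 that fell. No BBS gene passed. Outside the 32 this contrast did not hold. Of 13 other transition zone genes 2 rose in limma (15.4%), with 1 called in edgeR, and 0 fell. Of 10 other IFT subunits 0 rose and 1 fell. In the limma fit over all 16316 tested genes, 17.4% were called at an adjusted p below 0.05, 10% higher and 7.38% lower, so 7 called genes of 32 (21.9%) is close to that background (edgeR called 16.1% of all genes), and the 2 of 14 IFT genes that rose (14.3%) stand against 10%. For the transition zone the 5 of 10 that fell stand against 7.38%. The median log2 fold change was 0.22 for IFT, −0.41 for BBS and −0.76 for the transition zone genes, against −0.06 for all tested genes. The deposited scaling gave 1632 higher and 1204 lower calls over all genes, and scaling to equal totals gave 912 higher and 1985 lower, with a median of all genes of −0.27. Relative to the median of all genes, the 3 complexes lay at 0.28, −0.35 and −0.70 under either scaling. A change of scaling shifts all genes almost alike, so these relative values could hardly differ and are not a check.

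**Figure D1:**
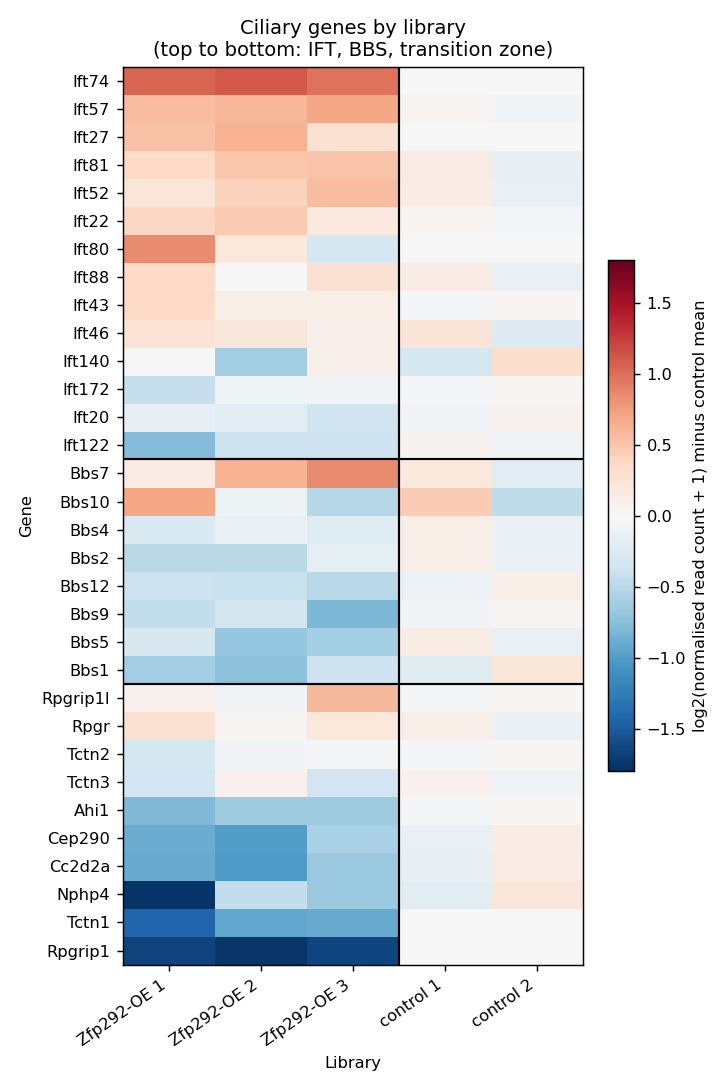
Heat map of the 32 ciliary genes (rows, grouped as IFT, BBS and transition zone) in the 3 libraries labelled Zfp292-OE and the 2 control libraries (columns). Colour gives log2(normalised read count + 1) minus the mean of the controls on that scale, with red for higher and blue for lower. Rpgrip1 is deep blue and Ift74 red in all 3 libraries labelled Zfp292-OE, while Ift80, Bbs10 and Nphp4 vary between those libraries.

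**Figure D2:**
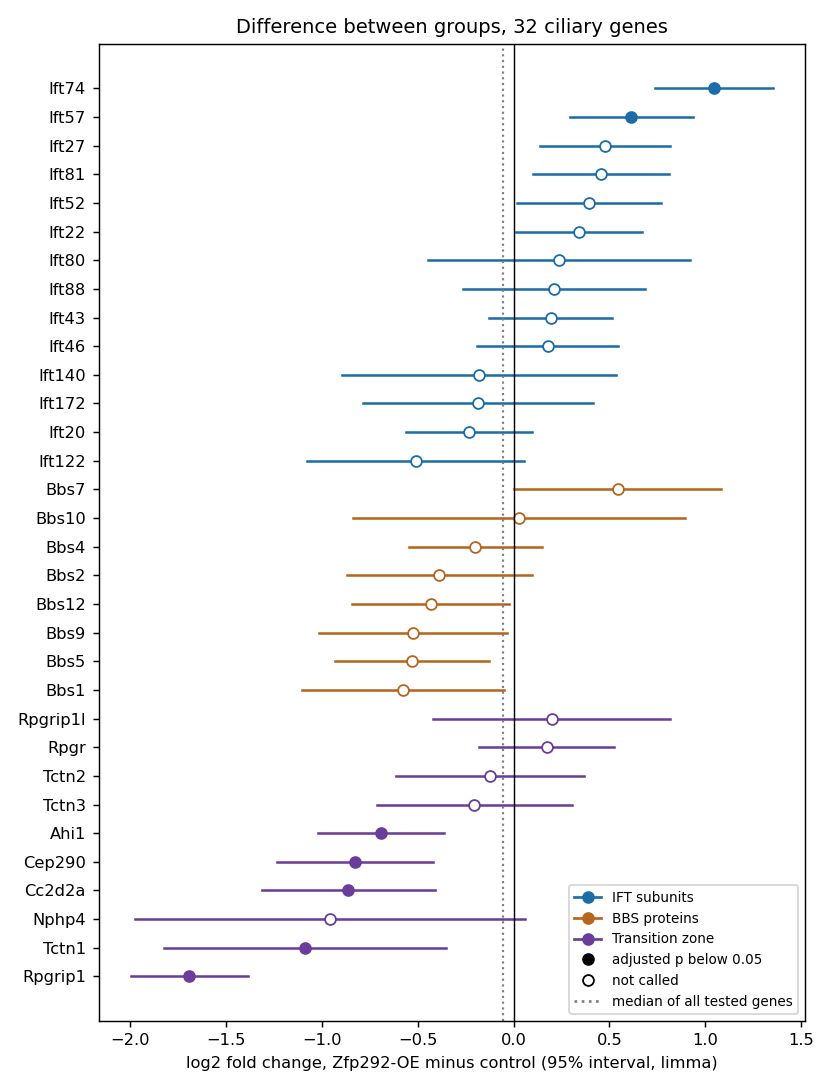
Log2 fold changes of the 32 genes (x axis, libraries labelled Zfp292-OE minus control) with 95% intervals from limma, by complex. Filled points passed an adjusted p of 0.05, and the dotted line is the median of all tested genes at −0.06. The 5 filled transition zone points lie between −1.69 and −0.69, and the 2 filled IFT points at 0.61 and 1.05.

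Rpgrip1 showed the widest difference of the 32. It encodes the scaffold that holds the regulator Rpgr in the connecting cilium and lies on chromosome 14, 52104241 to 52161339 (GRCm38, RefSeq; Entrez 77945). Its normalised read counts were 7781, 7290 and 7795 in libraries 1, 2 and 3 labelled Zfp292-OE, against 24419 and 24805 in control libraries 1 and 2. The groups were far apart, and libraries of each group lay within a narrow range. Libraries labelled Zfp292-OE averaged 7622 ± 288 (SD, n = 3) and control libraries 24612 ± 273 (SD, n = 2). The difference was −1.69 on the log2 scale (SE 0.14, limma adjusted p = 0.000252). In bulk RNA, fewer cells of a type and less RNA per cell cannot be told apart, and the part of the fall in rod genes in this value was not tested. Of its 5412 exon bases, 926 overlap Supt16 on the opposite strand, and no source here says whether counting used the strand. Supt16, a histone chaperone subunit, lay in the other direction, at 0.74 on the log2 scale (adjusted p = 0.0288, 0.00296 to 0.286 over 14 alternatives).

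The RefSeq window from 250 bases before to 50 after the start of Rpgrip1 (chr14:52110653-52110952, plus strand, GRCm38.p6) is shown because this gene moved most. The start used there lies within the annotated gene. Capitals mark its single match to TAATCC, the core bound by the photoreceptor homeodomain factors CRX and OTX2, which reads on the minus strand here and begins 28 bases before the start.
Rpgrip1: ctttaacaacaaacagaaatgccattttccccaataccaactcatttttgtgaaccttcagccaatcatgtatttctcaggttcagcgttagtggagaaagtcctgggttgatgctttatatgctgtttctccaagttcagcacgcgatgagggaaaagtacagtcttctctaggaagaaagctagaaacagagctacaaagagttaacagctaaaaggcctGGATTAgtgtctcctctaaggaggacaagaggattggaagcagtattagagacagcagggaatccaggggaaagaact
TAATCC on either strand occurred in at least 1 window of 7.23% of the 12815 tested genes with a window, and in 2 of 29 members with one, Rpgrip1 and Bbs1. A match describes the letters and is not a shown binding site.

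Its partner Rpgr, the GTPase regulator encoded on the X chromosome, did not pass the test. Rpgr had 9769, 8399 and 9264 in libraries labelled Zfp292-OE, against 8819 and 7431 in control libraries, and the groups overlapped. Its log2 fold change was 0.17 (95% interval −0.18 to 0.52, adjusted p = 0.479). The count of Rpgr per count of Rpgrip1, which no scaling of libraries can change, was 1.26, 1.15 and 1.19 in libraries labelled Zfp292-OE, against 0.361 and 0.300 in control libraries. Rpgrip1l, a related scaffold found in cilia of many tissues, had a log2 fold change of 0.20 (95% interval −0.42 to 0.82, adjusted p = 0.659). Under equal totals Rpgr was at −0.04 and Rpgrip1l at −0.02.

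Cep290, Cc2d2a, Ahi1 and Tctn1 also fell. Cep290, a long coiled-coil protein of the links between microtubules and membrane (chromosome 10, 100487548 to 100575671), had 4909, 4555 and 6082 in libraries labelled Zfp292-OE, against 8296 and 10010 in control libraries. The groups did not overlap, and control library 2 was the higher control. The log2 fold change was −0.83 (SE 0.18, adjusted p = 0.0147). Some 776 of 8211 exon bases overlap 4930430F08Rik on the opposite strand, which was at −0.26 on the log2 scale (adjusted p = 0.475).

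Cc2d2a, a C2-domain protein of the tectonic complex (chromosome 5, 43662374 to 43740975), had 2341, 2173 and 2778 in libraries labelled Zfp292-OE, against 3970 and 4862 in control libraries. Its libraries ranked in the same order as those of Cep290, with no overlap between groups and a log2 fold change of −0.86 (SE 0.20, adjusted p = 0.0190). Ahi1, or jouberin (chromosome 10, 20952232 to 21080429), had 6824, 7659 and 7663 in libraries labelled Zfp292-OE, against 11605 and 12189 in control libraries. Ahi1 was uniform within each group, with a log2 fold change of −0.69 (SE 0.15, adjusted p = 0.0126).

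Tctn1, a tectonic (chromosome 5, 122239495 to 122264489), had 383, 537 and 548 in libraries labelled Zfp292-OE, against 1020 and 1039 in control libraries. It was the lowest of the 5 in counts and the closest to the threshold, at a log2 fold change of −1.09 (SE 0.33, adjusted p = 0.0474). Its exons share 1574 of 5717 bases with Hvcn1 on the opposite strand, itself at only 5.70 to 7.52 in libraries labelled Zfp292-OE and 6.54 and 32.3 in control libraries. The other tectonics did not pass: Tctn2 averaged 1792 ± 195 (SD, n = 3) in libraries labelled Zfp292-OE and 1945 ± 51 (SD, n = 2) in control libraries, and Tctn3 averaged 1968 ± 341 (SD, n = 3) and 2250 ± 185 (SD, n = 2) in the same order. Nphp4, nephrocystin-4, had 219, 552 and 472 in libraries labelled Zfp292-OE, against 650 and 862 in control libraries. All 3 in the Zfp292-OE group lay below both controls, but they spread widely, and Nphp4 did not pass (log2 fold change −0.96, SE 0.46, adjusted p = 0.176).

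Groups failed to overlap for 21 of the 32 members, against 49.9% of all tested genes. Among the 10 transition zone genes this held for 6, all lower, against 25.7% of all tested genes in that direction. The 5 calls also passed in edgeR and in DESeq2. Each was lost without control library 1 or without control library 2, where a lone control is assumed to vary like the other group, with values from 0.0544 (Rpgrip1) to 0.172 (Tctn1) and from 0.111 (Rpgrip1) to 0.226 (Tctn1). Tctn1 was also lost without library 1, 2 or 3 labelled Zfp292-OE (adjusted p = 0.112, 0.0645 and 0.0568) and with a replicate block (0.0603). The block is not a separate estimate. Since number 3 has no control, it gave the same fold changes as omitting library 3 of the Zfp292-OE group. Cc2d2a was lost without library 1 or 2 of that group (0.0550 and 0.0527). The ranges over 14 alternatives were 2.76e-35 to 0.111 for Rpgrip1, 0.000376 to 0.183 for Cep290, 0.000594 to 0.182 for Cc2d2a, 4.47e-05 to 0.129 for Ahi1 and 0.00889 to 0.226 for Tctn1.

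**Figure D3:**
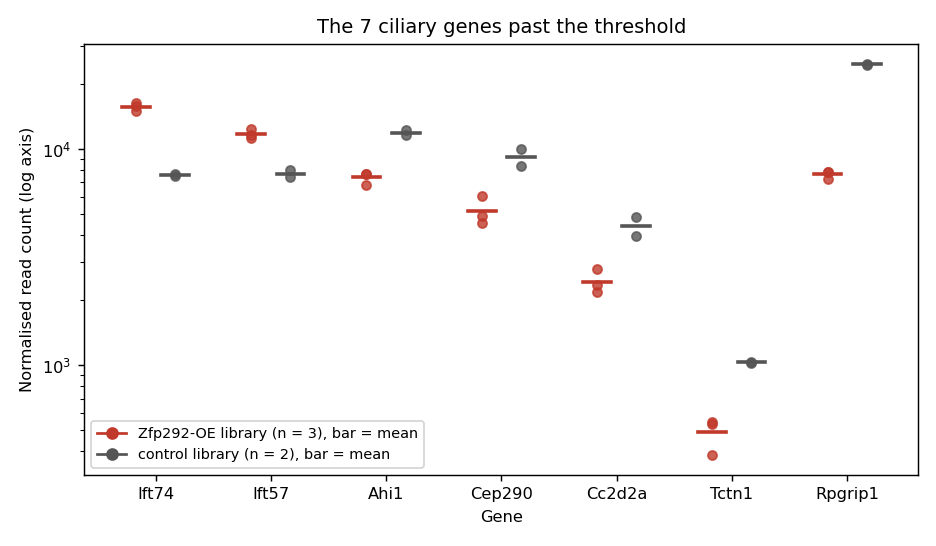
Normalised read counts (log axis) of the 7 ciliary genes past the threshold, with points for the 3 libraries labelled Zfp292-OE and, to their right, the 2 control libraries, and bars for group means. Ift74 and Ift57 lie above their controls, the 5 transition zone genes lie below theirs, and no group overlaps its counterpart.

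In IFT-B, Ift74 and Ift57 rose. Ift74 and Ift81 pair through coiled coils and bind tubulin in the core of the train. Ift74 (chromosome 4, 94603266 to 94693233; Entrez 67694) had 15743, 16262 and 14983 in libraries labelled Zfp292-OE, against 7653 and 7510 in control libraries. The values were uniform within groups and did not overlap. The ratio of means was 2.07 and the log2 fold change 1.05 (SE 0.14, limma adjusted p = 0.00127). Ift81 had 8797, 9669 and 9782 in libraries labelled Zfp292-OE, against 7615 and 6189 in control libraries. All 3 lay above both controls, and Ift81 did not pass (log2 fold change 0.45, 95% interval 0.10 to 0.81, adjusted p = 0.0771, but 0.0327 in DESeq2, range over 14 alternatives 0.0327 to 0.318). The count of Ift74 per count of Ift81 was 1.79, 1.68 and 1.53 in libraries labelled Zfp292-OE, against 1.01 and 1.21 in control libraries, higher in all 3 than in either control.

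Ift57, a peripheral IFT-B subunit that helps to engage kinesin-II (chromosome 16, 49699294 to 49765126; Entrez 73916), had 11251, 11616 and 12421 in libraries labelled Zfp292-OE, against 7960 and 7404 in control libraries. The groups did not overlap, with a log2 fold change of 0.61 (SE 0.14, adjusted p = 0.0185). This call did not hold under equal totals (0.40 on the log2 scale, adjusted p = 0.0884), when blocked by replicate number (0.0787) or when library 2 labelled Zfp292-OE was left out (0.0549). Without control library 1 the adjusted p was 0.0687 for Ift57 and 0.0544 for Ift74, and without control library 2 it was 0.136 and 0.111. The ranges over 14 alternatives were 0.000211 to 0.136 for Ift57 and 4.03e-13 to 0.111 for Ift74. An overlap of 225 of 2662 exon bases with Gm15518 on the opposite strand affects Ift57.

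The windows of both genes are shown because they were the only 2 members that rose in limma. Ift57 (chr16:49699044-49699343, plus strand) holds a pair of matches, in capitals, to GTTGCC, the core of the X-box that RFX factors bind in promoters of many ciliary genes. They begin 87 and 60 bases before the start. Ift74 (chr4:94614241-94614540, plus strand), whose window also starts within the annotated gene, holds none.
Ift57: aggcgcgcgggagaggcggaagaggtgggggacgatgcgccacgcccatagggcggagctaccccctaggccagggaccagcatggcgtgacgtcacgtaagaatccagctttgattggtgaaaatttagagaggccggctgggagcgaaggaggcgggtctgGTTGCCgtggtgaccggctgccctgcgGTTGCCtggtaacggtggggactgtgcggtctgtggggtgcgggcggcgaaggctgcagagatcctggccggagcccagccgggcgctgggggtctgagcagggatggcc
Ift74: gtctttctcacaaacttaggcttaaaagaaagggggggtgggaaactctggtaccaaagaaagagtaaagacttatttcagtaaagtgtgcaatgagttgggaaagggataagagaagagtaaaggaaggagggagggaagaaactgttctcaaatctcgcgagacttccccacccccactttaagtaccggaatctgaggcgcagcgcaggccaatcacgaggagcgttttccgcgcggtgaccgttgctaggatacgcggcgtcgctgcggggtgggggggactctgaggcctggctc

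The small GTPase Ift27 was the next closest of the IFT genes, with 17369, 18584 and 14567 in libraries labelled Zfp292-OE, against 11978 and 12121 in control libraries. Its log2 fold change of 0.48 (SE 0.15) had an adjusted p of 0.0577, and it passed in DESeq2 (0.0147) and without library 3 labelled Zfp292-OE (0.0403, range over 14 alternatives 0.0147 to 0.239). Ift22, another Rab-like GTPase of the core, averaged 15022 ± 1528 (SD, n = 3) in libraries labelled Zfp292-OE and 11819 ± 465 (SD, n = 2) in control libraries, and the core subunit Ift52 averaged 9379 ± 1085 and 7137 ± 930 in the same order. Neither passed (adjusted p = 0.140 and 0.134). The 7 core subunits with Ift symbols (Ift22, Ift27, Ift46, Ift52, Ift74, Ift81 and Ift88) had positive log2 fold changes, with a median of 0.39, though Ift46 and Ift88 were just below 0 under equal totals, and Ift46 was at −0.06 without control library 2. Core subunits with other symbols lay on both sides of 0 and are given with the related genes. The 4 peripheral subunits with Ift symbols were mixed, with a median of 0.03: beside Ift57, Ift80 was 0.24, Ift172 was −0.19 and Ift20, which also works at the Golgi, was −0.23. Ift80 ran from 1820 to 4087 among libraries labelled Zfp292-OE, against 2256 and 2295 in control libraries.

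None of the 3 IFT-A genes with Ift symbols passed, with 0 at an unadjusted p below 0.05 and 0 called by edgeR or DESeq2. Ift122 had 989, 1304 and 1312 in libraries labelled Zfp292-OE, against 1781 and 1621 in control libraries, lower in all 3 (log2 fold change −0.51, 95% interval −1.08 to 0.05, adjusted p = 0.191). Ift43 had a log2 fold change of 0.19, or −0.02 under equal totals, and Ift140 of −0.18. Over all 14 IFT genes the groups did not overlap for 7 higher and 3 lower, against 24.3% and 25.7% of all tested genes. G2/M genes were higher in all 3 libraries labelled Zfp292-OE, as given above, and their part in the IFT values was not tested.

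BBS genes lay mostly below control without passing. Of 8, limma called 0 and edgeR 0 at the adjusted threshold, DESeq2 called 1 (Bbs5), and 5 had an unadjusted limma p below 0.05, as did 5351 of the 16316 genes tested. Bbs5, the subunit that binds phosphoinositides, had 7366, 5559 and 5861 in libraries labelled Zfp292-OE, against 9859 and 8159 in control libraries. The groups did not overlap, and the log2 fold change was −0.53 (SE 0.18, adjusted p = 0.0698, 0.0324 in DESeq2 and 0.0164 under equal totals, range over 14 alternatives 0.0164 to 0.303). Bbs1, which contacts ciliary cargo, had 1620, 1498 and 1918 in libraries labelled Zfp292-OE, against 2143 and 2895 in control libraries. Bbs1 too was lower in all 3, at −0.58 (SE 0.24, adjusted p = 0.122).

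Other coat subunits lay on both sides of 0. Bbs9 (−0.52), Bbs2 (−0.39) and Bbs4 (−0.20) were below 0, while Bbs7 was 0.54 (95% interval 0.00 to 1.08, adjusted p = 0.149), with 2899, 4042 and 4686 in libraries labelled Zfp292-OE, against 2979 and 2287 in control libraries. The lowest of these 3 lay within the control range. The chaperonin-like Bbs12, which helps to assemble the coat, averaged 2857 ± 117 (SD, n = 3) in libraries labelled Zfp292-OE and 3862 ± 408 (SD, n = 2) in control libraries (−0.43, adjusted p = 0.134). Its companion Bbs10 spread from 1002 to 2323 in libraries labelled Zfp292-OE and from 1047 to 1974 in control libraries, and had a log2 fold change of 0.03, or −0.19 under equal totals. Groups did not overlap for 5 of the 8 BBS genes, all 5 lower, against 25.7% of all tested genes in that direction.

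Levels between genes were compared as normalised read counts per kilobase of exon, with exon length taken as the union over transcripts of the GENCODE M21 basic annotation, which can differ from the transcripts these cells use. On this scale Ift43 stood highest in both groups, with means of 26309 and 22931 per kilobase in libraries labelled Zfp292-OE and control libraries, followed by Ift27 (15323 and 10964) and Ift20 (8832 and 10382). Nphp4 was lowest in both groups (82.4 and 150). Rpgrip1 was the fifth highest of the 32 in control libraries, at 4548 per kilobase, and rank 14 in libraries labelled Zfp292-OE, at 1408. Ift74 was rank 4 in libraries labelled Zfp292-OE, at 5974 per kilobase, and rank 10 in control libraries, at 2891. Large IFT subunits such as Ift140 (147 and 166) and Ift172 (186 and 211) stood far below the small ones per kilobase. Their exon lengths are 7.701 and 5.412 kb, against 0.807 for Ift43, 1.099 for Ift27 and 1.141 for Ift20, so division by length widens the gap. Before division the control means were 1281 and 1140, against 18505, 12049 and 11846, and Rpgrip1 was highest at 24612. Whether reads covered long and short transcripts evenly was not tested, so the order per kilobase may partly reflect length.

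**Figure D4:**
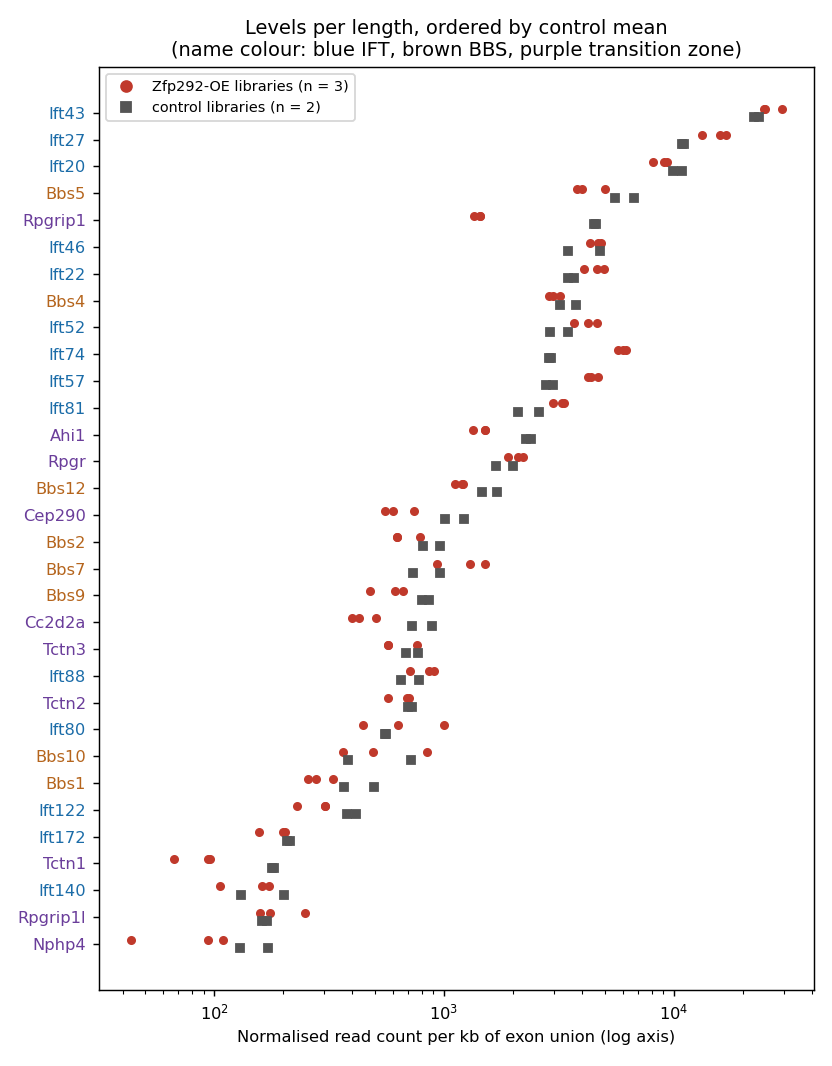
Normalised read counts per kilobase of exon union (x axis, log scale) for the 32 genes, ordered by the control mean, with circles for the 3 libraries labelled Zfp292-OE and squares for the 2 control libraries. Levels run from 22931 for Ift43 to 150 for Nphp4 in the control means, and the separation of Rpgrip1 from its controls is the widest.

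GTTGCC, which the choice of members did not use, was present in some promoters and absent from most. On either strand it occurred in a window of 13 of the 29 members with one (44.8%), against 15.0% of the 12815 tested genes with a window. It was found in 5 of 11 IFT, 3 of 8 BBS and 5 of 10 transition zone genes, and in 3 of the 7 that passed the test (Ift57, Ahi1 and Tctn1), so members with and without it moved in both directions. The full X-box was searched at a fixed spacing, as GTTNCC and GNAAC with any 3 letters between them, on either strand. It was in 3 of 29 members (10.3%) against 1.16% of tested genes. With AT as the first of those letters it was in 0 members against 0.328%. These longer matches overlap matches to GTTGCC. Other spacings were not searched. In Ift57, which rose, and Tctn3, which did not pass, GTTGCC was followed by GTAAC at a shorter spacing. The 3 matches at the searched spacing are shown, in capitals, to let the element be read in full. They come from Ahi1 (chr10:20952560-20952589, plus strand), Tctn1 (chr5:122264411-122264432, minus strand, ending at the edge of the window) and Bbs7 (chr3:36613489-36613518, minus strand), and Ahi1 and Tctn1 were 2 of the genes that fell.
Ahi1: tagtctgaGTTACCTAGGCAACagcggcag
Tctn1: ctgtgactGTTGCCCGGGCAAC
Bbs7: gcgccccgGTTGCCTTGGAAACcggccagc
The RFX genes themselves did not pass: of 6 tested factors of ciliary genes, limma, edgeR and DESeq2 each called 0, with 0 at an unadjusted p below 0.05. The log2 fold change was −0.62 for Rfx1 (adjusted p = 0.172) and 0.57 for Rfx2 (adjusted p = 0.379).

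Related genes outside the 32 were read in lists. Of 10 other IFT subunits 1 fell and 0 rose, Ttc30b at −0.80 (adjusted p = 0.0296, 0.0770 and 0.0713 without libraries 1 and 2 labelled Zfp292-OE, range over 14 alternatives 0.00211 to 0.159). Its close paralogs Ttc30a1 and Ttc30a2 were at −0.34 and −0.48 without passing, and reads may be split among the 3. Of the other core IFT-B subunits, Hspb11 was at 0.20 and Ttc26 at 0.21, and of the peripheral ones, Cluap1 was at 0.53 (adjusted p = 0.0725, 0.0366 in DESeq2) and Traf3ip1 at 0.03. In IFT-A, Ttc21b was at −0.64 (unadjusted p = 0.0260, adjusted p = 0.1004, 0.0397 in DESeq2), Wdr19 at −0.13 and Wdr35 at 0.21. None of these 7 passed in limma. None of 9 motor genes (2 at an unadjusted p below 0.05, edgeR 0, DESeq2 2) and none of 7 BBSome partners (2, 0 and 2 by the same measures) passed. The closest were Dync2i1, a dynein-2 intermediate chain, at −0.71 (adjusted p = 0.0582), Kif3a, a kinesin-II motor, at 0.47 (0.0972), Bbip1, the smallest BBSome subunit, at 0.49 (0.0582), and Sdccag8, a centrosomal protein, at 0.47 (0.101). Of 13 other transition zone genes 2 rose and 0 fell, with a median of 0.21. The list was mixed, with 8 positive and 5 negative log2 fold changes. Groups did not overlap for 4 higher and 4 lower, against 24.3% and 25.7% of all tested genes. Tmem107, a membrane protein of the ring at the ciliary base, rose 2.32-fold, with 19928, 20527 and 12564 in libraries labelled Zfp292-OE, against 7646 and 7563 in control libraries (adjusted p = 0.00570). Tmem216 was at the threshold (0.49, adjusted p = 0.0498) and did not pass in edgeR (0.0736, range over 14 alternatives 0.0127 to 0.260).

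Genes of the photoreceptor cilium also fell. Of 10, 6 fell and 0 rose, with a median of −1.20. The axonemal proteins Rp1 and Rp1l1 were −2.06 and −2.30, the disc-base cadherin Cdhr1 −1.78, and Tulp1, a tubby-like protein of protein transport to the outer segment, −1.89 (adjusted p = 0.000252, 0.00111, 0.000263 and 0.000374). Rp1 had 12366, 11360 and 9645 in libraries labelled Zfp292-OE, against 46596 and 45553 in control libraries. The part of the lower rod genes in these values was not tested. Among 10 genes of traffic to the cilium 1 rose and 1 fell. Unc119, the carrier of lipidated transducin, was −1.22 (adjusted p = 0.000526), and Rab8a was 0.47 (adjusted p = 0.0479, 0.0696 in edgeR, range over 14 alternatives 0.00898 to 0.227). Of 14 genes of basal bodies and of cilium assembly or removal, 2 rose: Nek2, a centrosomal kinase of dividing cells, 5.23-fold and Sclt1, a distal appendage protein, 2.05-fold (adjusted p = 0.00205 and 0.0130). Over the 79 tested genes of these lists together, 5 rose and 8 fell (16.5%), close to the 17.4% of all genes.

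**Figure D5:**
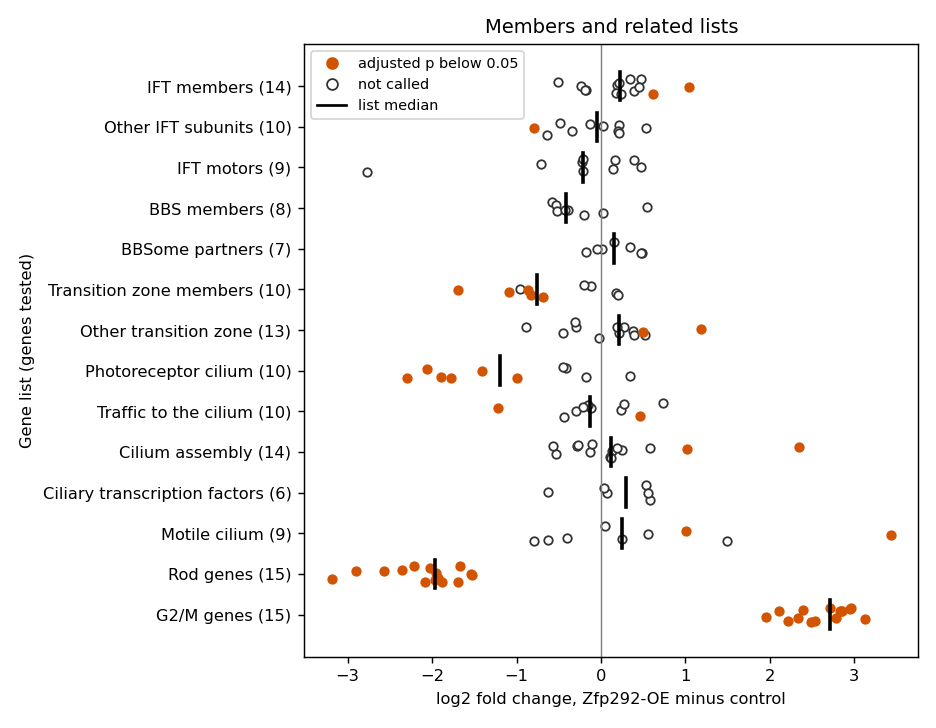
Log2 fold changes (x axis, libraries labelled Zfp292-OE minus control) of the members and of related gene lists, 1 point per tested gene, filled where the limma adjusted p was below 0.05, with a bar at each median. Transition zone members (median −0.76) lie to the left of other transition zone genes (0.21), and photoreceptor cilium genes (−1.20) lie towards the rod genes (−1.97).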

How the data were processed

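The authors deposited a signal per gene: normalised read counts. In each library 100% of the values were whole multiples of the smallest value above 0, within 1e-06 of a read, so whole reads were recovered. GRCm38 and mm10 are named per the submitters' processing notes. Aligner, counter, annotation, scaling method and use of strand were not stated. The table held 0 columns of other samples and 18 rows with no symbol.

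limma 3.58.1 (R 4.3.3, with a trend) was fitted to log2(value + 1) of every gene averaging 10 or more across all 5 libraries, 16316 genes. Differences are Zfp292-OE less control, adjusted by Benjamini-Hochberg, with a threshold of 0.05. Fold changes on this scale understate changes of low genes. Other settings tried were a pseudocount of 0.5 or 10, dropping the filter or raising it to 50, scaling by TMM or to equal totals, edgeR 4.0.16 or DESeq2 1.42.0 on the whole reads, the replicate number as a block, and omitting 1 library at a time. Tested on simulated data, the fit gave most directions rightly and with little bias, but it missed many changed genes. In every simulated dataset the share of false calls was above the threshold, so calls near 0.05 are less certain than their adjusted p. A far smaller share of genes was changed in the simulation than was called here, so it cannot tell how many changed genes were missed in these data. Libraries of a group differed by more than counting noise.

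Members and lists were chosen with earlier results of these data known. Members past the threshold, and 2 others per complex with the smallest p, are given by library; further members and overlapping genes were named after their values were seen, as were some genes of the related lists beyond those past the threshold. Coordinates and promoter windows are from RefSeq (GRCm38.p6), with windows for 29 of 32 members, and exon overlaps and lengths from GENCODE M21. Tables and plots used Python 3.11.15, pandas 2.3.3 and matplotlib 3.10.9.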

Additional observations from a re-analysis of the deposited data

How the results depend on the processing

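Over 14 alternatives the 7 called members kept their direction, and 8 members that did not pass changed sign in at least 1. The groups of the 7 did not overlap, so leaving out a library could not change their direction. The count of called IFT genes, 2 in the limma fit, was 4 in DESeq2, 1 under equal totals and 1 with a replicate block, and the BBS count, 0 in the limma fit, was 1 in DESeq2 and 3 under equal totals, all lower. Leaving out each library gave 0 to 3 IFT, 0 to 0 BBS and 0 to 4 transition zone calls, and 1 to 2352 calls over all genes, against 2836 with all libraries. The low end came from leaving out either control, although an unadjusted p was below 0.05 for 4390 genes (control library 1 left out) and 3534 (control library 2 left out), and for 5351 with none left out. Omitting library 1 of the Zfp292-OE group left 1657 calls. Tctn1 also missed the threshold with no filter (adjusted p = 0.0684, range over 14 alternatives 0.00889 to 0.226), Bbs9 and Bbs12 passed under equal totals (0.0442 and 0.0433, ranges 0.0442 to 0.387 and 0.0433 to 0.349), and the cause was not tested. Replicate numbers did not pair the libraries (correlations of deviations −0.04 and −0.03 for numbers 1 and 2), and the replicate block gave 2498 calls over all genes and 4 of the transition zone. Only 2 control libraries limit the precision of every comparison.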

Other observations

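Genes of motile cilia, which retinal cells do not build, were read as a further list. Of 9 tested, 2 rose (22.2%, against 10% of all tested genes) and 0 fell, with a median log2 fold change of 0.25. Rsph1, a radial spoke protein, had 4908, 6054 and 3601 in libraries labelled Zfp292-OE, against 409 and 473 in control libraries (log2 fold change 3.43, SE 0.26, limma adjusted p = 0.000252, lost without control library 1 or 2 at 0.0544 and 0.111). Ccdc39, a ruler protein of the axoneme, rose by 1.01 on the log2 scale (adjusted p = 0.0134, lost without control library 1 or 2 at 0.0593 and 0.132, range over 14 alternatives 8.11e-05 to 0.132). Their usual regulator Foxj1 stood at 12.6 to 57.3 in libraries labelled Zfp292-OE and 15.3 and 19.3 in control libraries, and the dynein heavy chain Dnah5 at 3.76 to 20.5 and 1.09 and 1.54. Rsph4a was at 0 in 2 libraries labelled Zfp292-OE and 1 control library, and Spag17 in all 3 libraries labelled Zfp292-OE and 1 control library. Summed over the 12 genes, the list held 9016 to 11169 in libraries labelled Zfp292-OE and 4983 and 5368 in control libraries. Most of that difference came from Rsph1 alone, so the sum does not show a rise of the list.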
